A study of Homo sapiens with 3 samples.

Results

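The hyperpolarisation-activated cyclic nucleotide-gated (HCN) channels, the T-type calcium channels and their developmental regulator were examined by the promoter contacts of 7 genes in human cardiomyocytes. The genes were *HCN2*, *HCN3*, *HCN4*, *CACNA1D*, *CACNA1G*, *CACNA1H* and *SHOX2*. *CACNA1G* and *CACNA1H* encode T-type calcium channels. *CACNA1D* encodes an L-type channel and *SHOX2* a homeodomain transcription factor, so the name HCN and T-type channels does not cover this pair. A promoter fragment was a HindIII fragment listed as the captured end of a contact that held an annotated transcript start of a member gene. All contacts with such a fragment at either end were taken. In this way 6 of the 7 genes had a promoter fragment, and they had 8 of the 19075 promoter fragments and 174 of the 200587 contacts in the series. No level or score was used to choose the genes, although earlier results of these data were known when they were chosen.

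Promoter capture Hi-C (PCHi-C) ligates fragments of DNA that are neighbours in the folded genome and then pulls out the products that carry a promoter. The fragments found with a promoter are called promoter-interacting regions (PIRs). The 3 biological replicates were cardiomyocytes (hESC-CMs) differentiated from WA09 (H9), a human embryonic stem cell line, at passage 32, and they formed no genotype or treatment groups. They were enriched in lactate medium for 6 days, and their purity is given as at least 80 to 90%. CHiCAGO scored each pair of fragments by how far its reads exceeded those expected at that distance, and the lowest score in the lists was 5. The replicates were the 1 condition analysed here, so values are given with their spread over replicates and no groups were tested. Marker levels of pacemaker or working cardiomyocytes could not be checked, since the values used here are contacts and not expression.

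HCN channels open when the membrane hyperpolarises, bind cyclic AMP and carry the inward "funny" current of the sinoatrial node. HCN4 is the main isoform of that node, and T-type channels and the L-type channel of *CACNA1D* add calcium current later in diastolic depolarisation. SHOX2 is known to hold back NKX2-5 in the developing node and so to keep the pacemaker gene programme open.

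Replicates 1, 2 and 3 listed 112473, 109731 and 110740 contacts over the whole genome, with median scores of 6.63, 6.64 and 6.65. The 7 genes had 112, 128 and 108 of these, a mean of 116 ± 10.6 (SD, n = 3). Of the 174 in the union, 41.4% were called in all 3 replicates. Over all contacts that share was 24.0%, and over all contacts of at most 500 kb it was 37.2%. Member contacts spanned a median of 258 kb, against 716 kb over all same-chromosome contacts, and shorter contacts were shared more often throughout the series. *CACNA1G* and *HCN4* held 63 and 43 of the contacts, and 34 and 25 of those called in all 3 replicates. Their median distances were 159 and 239 kb. The *CACNA1D* fragment with 5 starts had a median of 192 kb, and the remaining fragments had medians of 374 to 436 kb. Of the member contacts, 10.9% reached a fragment that overlapped the member gene itself. Over all promoter fragments with an annotated start, 4.55% reached any gene that starts in the promoter fragment, a wider rule. The 10.9% leaves out 17 contacts of the *SHOX2* fragment over *RSRC1* and 1 of the *HCN3* fragment over *CLK2*. These genes also start in the promoter fragments, so the shares are not directly comparable. Without the second fragments of *HCN3* and *CACNA1D* the share over the member gene itself was 4.52%, an alternative chosen after seeing the data. With a score of at least 10 it was 5.41%. A contact that is missing from a replicate scored under 5 there and was not shown to be absent.

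The 7 genes fell far apart in number of contacts. *CACNA1G* had 46.0 ± 2.65 contacts per replicate, *HCN4* 33.3 ± 2.52 and *SHOX2* 17.7 ± 1.15 (SD, n = 3). The promoter fragments of *HCN3* and *CACNA1D* had fewer, with means between 2.00 and 7.67. *CACNA1H* had 1 contact in all, and *HCN2* had none. Ranges over replicates were 43 to 48 for *CACNA1G*, 31 to 36 for *HCN4* and 17 to 19 for *SHOX2*. At a score of at least 5 they did not overlap each other or those of the remaining fragments. With a score of at least 10, the union held 18, 8 and 7 contacts of these genes, so *HCN4* and *SHOX2* were then close. In the union of the replicates *CACNA1G*, *HCN4* and *SHOX2* had 63, 43 and 30 contacts. Over all promoter fragments, 16.2% had 20 or more contacts in the union and 8.26% had 30 or more. By the same union count, as many as *CACNA1G* were reached by 1.49%, as many as *HCN4* by 3.68% and as many as *SHOX2* by 8.26%. *CACNA1G*, *HCN4* and *SHOX2* had 34, 25 and 8 contacts called in all 3 replicates, and 18.1% of all promoter fragments had 5 or more of these. At least 1 was found at 51.9% of all promoter fragments and at 5 of the 8 member fragments.

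**Figure D1:**
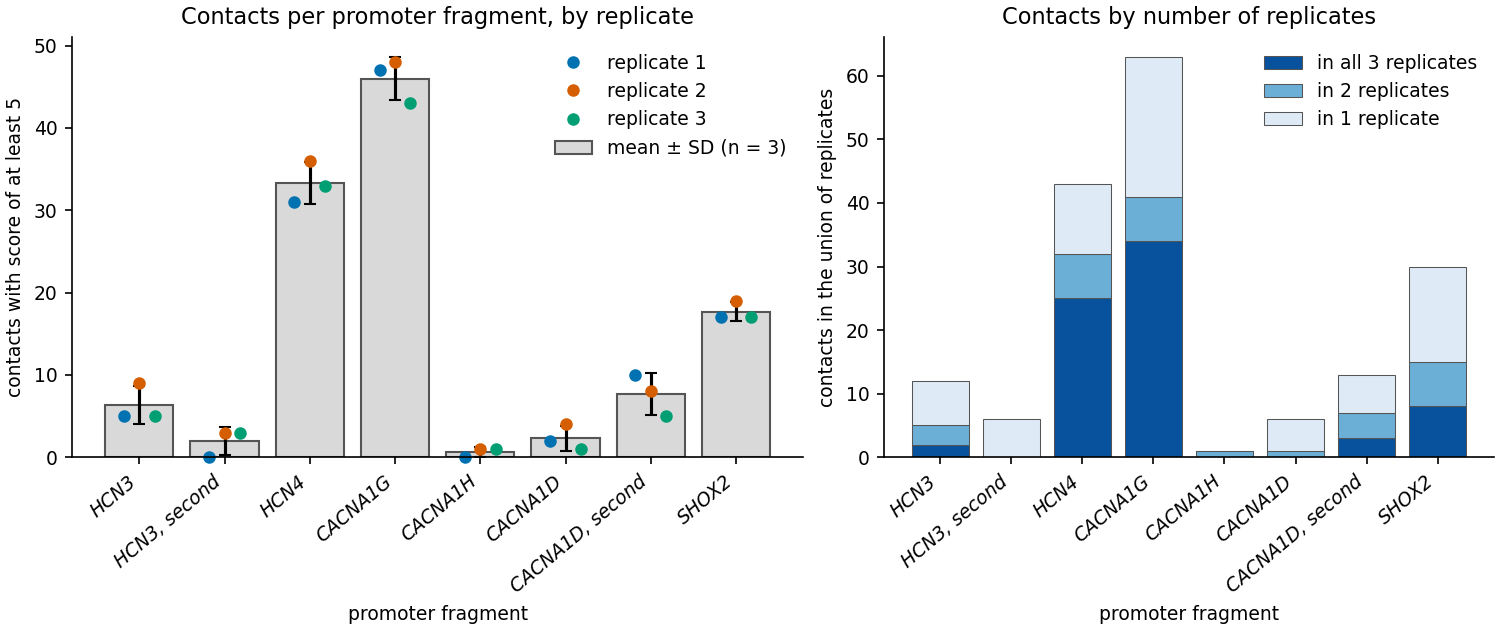
Left, contacts with a score of at least 5 at each member promoter fragment (bars, mean with SD over 3 replicates; points, single replicates). Right, contacts in the union of the replicates, divided by whether 1, 2 or all 3 replicates called them. *CACNA1G* reached 43 to 48 contacts, *HCN4* 31 to 36 and *SHOX2* 17 to 19, and the 6 contacts of the second *HCN3* fragment were each called in 1 replicate.

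**Figure D2:**
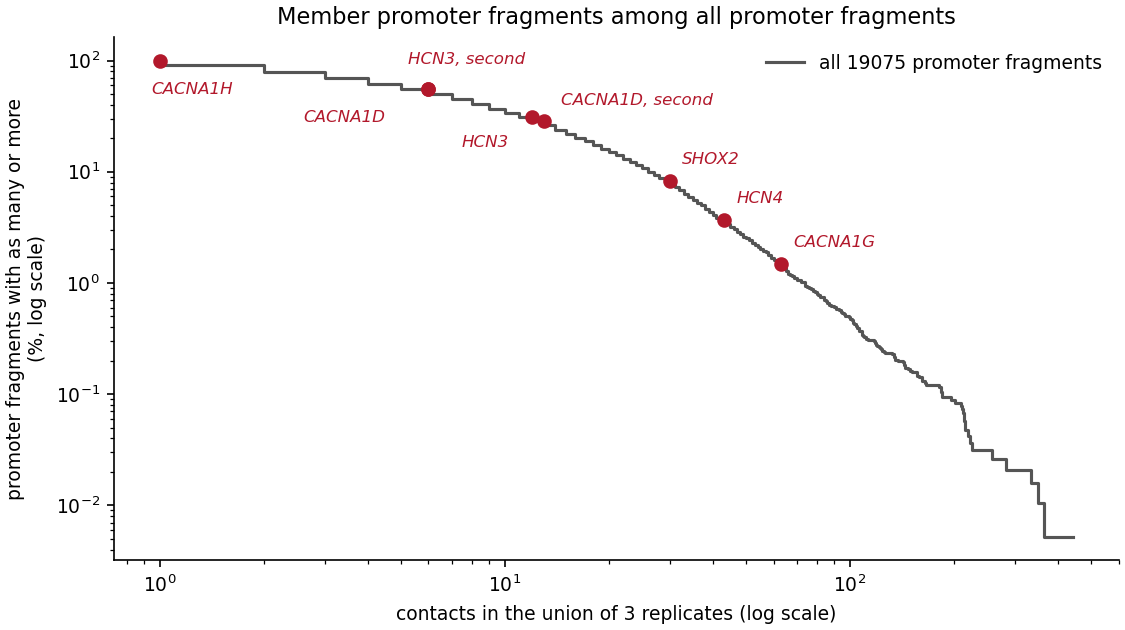
Share of all 19075 promoter fragments (vertical axis, %, log scale) with at least the number of contacts on the horizontal axis (log scale, union of 3 replicates). Red points mark the member fragments, from *CACNA1H* with 1 contact to *CACNA1G* with 63.

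*HCN4*, the pacemaker channel gene, reads towards lower coordinates from its promoter fragment at chr15:73657512-73664541, which holds no other annotated start. Replicates 1, 2 and 3 called 31, 36 and 33 contacts, and 25 of the 43 in the union (58.1%) were called in all 3. All 43 PIRs lay upstream of the gene, on the side away from its body, between 132 and 546 kb from the promoter. None lay over *HCN4* itself. Among 1568 promoter fragments with 20 or more contacts within 1 Mb, 49.1% had all of them on 1 side, so a single side alone was common.

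The first 44 HindIII fragments upstream of the *HCN4* promoter were in no listed contact with it. Beyond them, 43 of the next 117 fragments (36.8%) were called over 421 kb. The PIRs lay mainly over 3 genes. A fragment that overlaps both *REC114* and *NPTN* is counted under each. Those over *REC114*, a gene of meiotic recombination, numbered 15, of which 12 were called in all 3 replicates, at 132 to 193 kb. Those over *NPTN*, which encodes the adhesion protein neuroplastin, numbered 16, of which 6 were called in all 3, at 193 to 266 kb. Those over *CD276*, which encodes an immune checkpoint ligand, numbered 9, of which 6 were called in all 3, at 317 to 334 kb. Median mean scores of the PIRs called in all 3 replicates were 7.87, 8.87 and 6.67 over *REC114*, *NPTN* and *CD276*.

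The highest score of *HCN4* belonged to a fragment of 438 bp at chr15:73927135-73927572, which overlapped no gene. It lay just past the annotated 5′ end of *NPTN*, which falls in the adjoining fragment. *CD276* was farther off, with its nearest PIR at 317 kb. The fragment of 438 bp scored 17.50, 13.30 and 15.40 in replicates 1, 2 and 3 at a distance of 266 kb. Every replicate placed it above the adjoining fragment on the *NPTN* side, at chr15:73926006-73927134, which scored 13.07, 9.50 and 11.19. The *NPTN* promoter fragment next to that one scored 9.80, 7.83 and 8.04, a mean of 8.56 ± 1.08 (SD, n = 3). The next fragments within *NPTN*, at 261 and 257 kb, had means of 9.18 and 9.43. The *INSYN1* promoter fragment at 381 kb was the other promoter in contact, with 5.15 and 10.19 in replicates 2 and 3 and no listed score in replicate 1.

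The sequences behind this contact are shown because they are the 2 ends of the highest-scoring *HCN4* pair, followed by the one match to the CTCF core in the promoter fragment. The promoter is the RefSeq window of 250 bases before the start (table build GRCh38.p14), which was found unchanged at chr15:73661300-73661549 of GRCh37 and is written on the minus strand. The PIR is given by its first 300 bases, chr15:73927135-73927434 on the plus strand, with the remaining HindIII site in capitals. In the last line, chr15:73659204-73659263 on the plus strand, capitals mark the CTCF core match.
HCN4 promoter: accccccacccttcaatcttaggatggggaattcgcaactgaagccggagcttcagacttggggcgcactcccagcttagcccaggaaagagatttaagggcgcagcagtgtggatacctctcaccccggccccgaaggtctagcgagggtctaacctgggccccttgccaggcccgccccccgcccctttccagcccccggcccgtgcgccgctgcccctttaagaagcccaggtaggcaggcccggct
HCN4 PIR with the highest score: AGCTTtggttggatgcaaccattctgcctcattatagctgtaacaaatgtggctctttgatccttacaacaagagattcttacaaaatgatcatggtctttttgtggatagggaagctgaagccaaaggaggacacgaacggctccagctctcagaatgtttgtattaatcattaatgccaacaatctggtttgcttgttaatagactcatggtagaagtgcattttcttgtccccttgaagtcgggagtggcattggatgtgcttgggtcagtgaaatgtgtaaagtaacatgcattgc
HCN4 promoter fragment, CTCF core: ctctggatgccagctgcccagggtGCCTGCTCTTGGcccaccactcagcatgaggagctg

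Motifs were searched on both strands as the CTCF core, whose matches are the capitals in the promoter fragments shown, the MEF2 core, AGATAA for GATA factors, AGGTGTGA for T-box factors, CACTTAA for NKX2-5 and TAATTA for homeodomains. None occurred in the RefSeq promoter windows of 300 bases of *HCN2*, *HCN3*, *HCN4*, *CACNA1D* and *SHOX2*. Over 35116 such windows, the shares with a match were 2.41%, 2.73%, 10.3%, 0.980%, 2.45% and 4.84% in the same order. None occurred in the 438 bp PIR of *HCN4* either. The promoter fragment of *HCN4* held 1 CTCF core, on the minus strand, as did 23.8% of 1931 listed fragments of similar length (within 10%) with a match on either strand. Here and below, shares for listed fragments of similar length cover only the chromosomes of the member genes. Of the 25 *HCN4* PIRs called in all 3 replicates, 4 held a CTCF core (16.0%), against a mean of 8.0% for listed fragments of their lengths. These 4 held 3 matches on the plus strand and 1 on the minus strand. A match describes letters only and was not tested as a binding site.

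The *NPTN* promoter fragment contacted the *HCN4* promoter fragment, which is the pair already given above and no further observation. It also contacted 10 further fragments over the *HCN4* body, between 268 and 298 kb away. The body fragment at chr15:73651098-73652606 scored 7.78, 8.38 and 7.89 and that at chr15:73636400-73637433 scored 5.65, 7.16 and 6.62. No further *NPTN* contact with the *HCN4* body was called in all 3 replicates. By shared PIRs the promoter fragment most like that of *HCN4* was one of *REC114*, which had 2 PIRs in all and shared both, 4.65% of the *HCN4* PIRs.

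**Figure D3:**
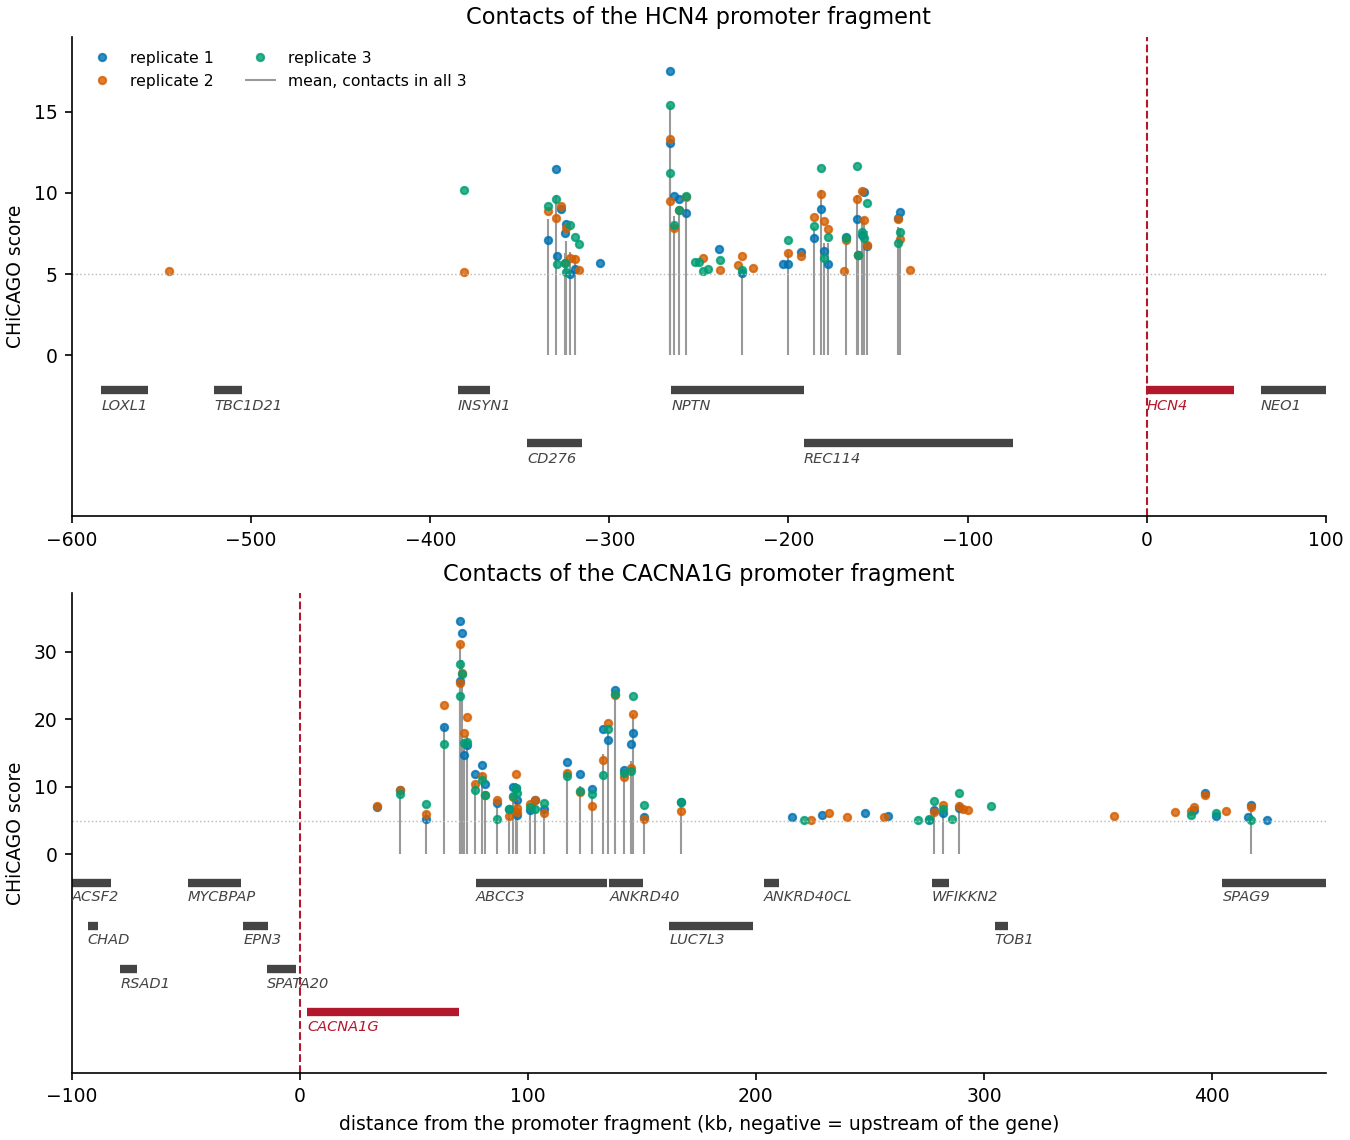
CHiCAGO score (vertical axis) of each contact of the *HCN4* (top) and *CACNA1G* (bottom) promoter fragments against distance from the fragment in kb, negative upstream of the gene. Points are single replicates, grey lines the mean of contacts called in all 3, the dotted line the lowest listed score, and bars protein-coding genes with the member in red. *HCN4* PIRs lay upstream over *REC114*, *NPTN* and *CD276*, and those of *CACNA1G* lay mainly downstream, with the highest means at 70.2 to 71.0 kb and the next at 138 kb. Contacts of *CACNA1G* outside the plotted range are left out.

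*CACNA1G*, which encodes a T-type channel of pacemaker and conduction tissue, had the most contacts of the 7 genes. Its promoter fragment at chr17:48630370-48639413 also holds the start of the antisense gene *CACNA1G-AS1*, so its contacts cannot be divided between the pair. Replicates 1, 2 and 3 called 47, 48 and 43 contacts, and 34 of the 63 in the union (54.0%) were called in all 3. Of these 63 PIRs, 60 lay downstream and 2 upstream on the same chromosome, and 1 lay on another chromosome. Of the 1568 promoter fragments with 20 or more contacts within 1 Mb, 62.0% had at least 95% of them on 1 side, and over all contacts 96.1% stayed on 1 chromosome. On the downstream side 60 of 100 HindIII fragments in a span of 394 kb were called, and 3 fragments separated the span from the promoter.

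The highest scores lay just past the end of *CACNA1G*, in an intron of an unnamed lncRNA gene between *CACNA1G* and *ABCC3*. A fragment at 70.2 kb scored 34.50, 31.07 and 28.15, a mean of 31.2 ± 3.18 (SD, n = 3). Its neighbours at chr17:48705171-48705402 and chr17:48705403-48706338 had means of 24.8 ± 1.23 and 28.7 ± 3.46. These 3 adjoining fragments at 70.2 to 71.0 kb had the highest means of any member contact, and replicate 1 was highest at each of them.

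A further peak of scores followed at *ANKRD40*, where the fragment at chr17:48771853-48773135 scored 24.27, 23.60 and 23.71, a mean of 23.9 ± 0.359 (SD, n = 3) at 138 kb. All 6 PIRs over *ANKRD40* were called in all 3 replicates, as were 16 of the 17 over *ABCC3*, which encodes an organic anion transporter. Between these peaks the scores over *ABCC3* were lower, with a median mean score of 9.18. PIRs over *CACNA1G* itself numbered 4, of which 3 were called in all 3 replicates, and the one that reaches its 3′ end scored 19.0 ± 2.89 (SD, n = 3). Beyond 200 kb scores stayed under 10, and of the 14 PIRs that overlapped no gene 1 was called in all 3 replicates.

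Promoter fragments in contact with that of *CACNA1G* in all 3 replicates were those of *ABCC3*, *WFIKKN2* and *ANKRD40*. That of *ABCC3* also holds a start of the unnamed lncRNA gene whose intron held the highest scores. Contacts of that fragment cannot be divided between the pair. *ABCC3* scored 11.96, 10.40 and 9.57, *WFIKKN2*, which encodes an inhibitor of myostatin and related ligands, scored 6.59, 6.25 and 7.89, and *ANKRD40* scored 5.54, 5.20 and 7.29. The neighbouring promoter fragment of *SPATA20* and *EPN3*, which ends where that of *CACNA1G* begins, shared 30 PIRs with it. Those were 47.6% of the *CACNA1G* PIRs and 90.9% of those of *SPATA20* and *EPN3*. That neighbour also contacted the 3′ end fragment of *CACNA1G* at 13.27, 12.17 and 9.48. The *ABCC3* promoter fragment shared 33, which were 52.4% of the *CACNA1G* PIRs and 58.9% of its own.

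The fragment with a mean of 24.8 is shown whole, because it is one of the shortest stretches to which the peak can be placed. It is written on the plus strand of chr17:48705171-48705402, and capitals mark the HindIII ends. The 60 bases at chr17:48705730-48705789 lie in the next fragment and hold its T-box match in capitals, and those at chr17:48636199-48636258 hold the CTCF core of the promoter fragment.
CACNA1G PIR at 70.4 kb: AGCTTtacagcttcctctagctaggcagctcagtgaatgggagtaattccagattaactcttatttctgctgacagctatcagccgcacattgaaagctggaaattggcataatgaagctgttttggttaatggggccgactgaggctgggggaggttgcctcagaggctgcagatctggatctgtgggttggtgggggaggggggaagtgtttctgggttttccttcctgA
CACNA1G PIR, T-box match: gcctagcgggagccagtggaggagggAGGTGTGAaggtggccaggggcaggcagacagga
CACNA1G promoter fragment, CTCF core: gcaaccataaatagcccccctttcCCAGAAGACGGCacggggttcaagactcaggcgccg

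The fragment of 232 bp held none of the motifs searched. The fragment of 936 bp beside it held 1 T-box match, as did 7.73% of 1823 listed fragments of similar length, and 1 GATA match, as did 51.3%. The CTCF core of the *CACNA1G* promoter fragment lay on the plus strand, and 30.1% of 1444 fragments of similar length held one on either strand. Of the 34 PIRs called in all 3 replicates, 8 held a CTCF core (23.5%), against a mean of 12.5% for listed fragments of their lengths, with 8 matches on the plus strand and 4 on the minus strand.

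*SHOX2* reads towards lower coordinates from a promoter fragment at chr3:157823026-157828252 that also holds a start of *RSRC1*, a splicing-related gene that runs the other way. Contacts of this fragment cannot be assigned to either gene alone. Replicates 1, 2 and 3 called 17, 19 and 17 contacts, but only 8 of the 30 in the union (26.7%) were called in all 3. That share was lower than those of *HCN4* and *CACNA1G* and close to the 24.0% over all contacts of any distance. It was below the 34.0% over all contacts of at most 1 Mb, the range that held 29 of the 30 *SHOX2* contacts. Of its PIRs 19 lay upstream of *SHOX2*, 10 downstream and 1 on another chromosome, at a median of 423 kb on the same chromosome.

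Within *RSRC1* lay 17 of the *SHOX2* PIRs, 5 of them called in all 3 replicates. The highest, at chr3:158024861-158027540 and 201 kb from the promoter, scored 18.99, 16.42 and 12.98, a mean of 16.1 ± 3.02 (SD, n = 3). This fragment is itself a promoter fragment in the lists, although no start in the annotation used lay in it. The fragments that follow it outwards scored lower, with 9.04 ± 1.78 at chr3:158030616-158030941 and 6.39 ± 1.94 in the fragment after that. A smaller group lay at 424 kb, where the adjoining fragments at chr3:158249171-158249380 and chr3:158249381-158249658 scored 6.98 ± 0.669 and 5.72 ± 0.467.

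The 3 most distant *SHOX2* contacts called in all 3 replicates were led by replicate 2. The *VEPH1* promoter fragment, 574 kb away, scored 8.84, 15.75 and 7.48. The *MLF1* promoter fragment, 465 kb away on the other side, scored 5.95, 12.35 and 5.39. A fragment between *VEPH1* and *SHOX2*, at chr3:157333315-157334306, scored 6.23, 13.48 and 5.74. Replicate 2 was the highest at each and replicates 1 and 3 lay close together. The means of 10.7 ± 4.43, 7.90 ± 3.87 and 8.48 ± 4.33 were thus raised by replicate 2 alone. When the replicates were merged before calling, the score of the merged reads exceeded every single replicate at 0 of the 8 *SHOX2* contacts called in all 3. It did so at 25 of 25 for *HCN4*, 33 of 34 for *CACNA1G* and 74.6% over all such contacts. *SHOX2* had 13 merged calls against 30 in the union, whereas *HCN4* had 52 against 43. Over the union of all contacts 56.7% were also called on the merged replicates.

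**Figure D4:**
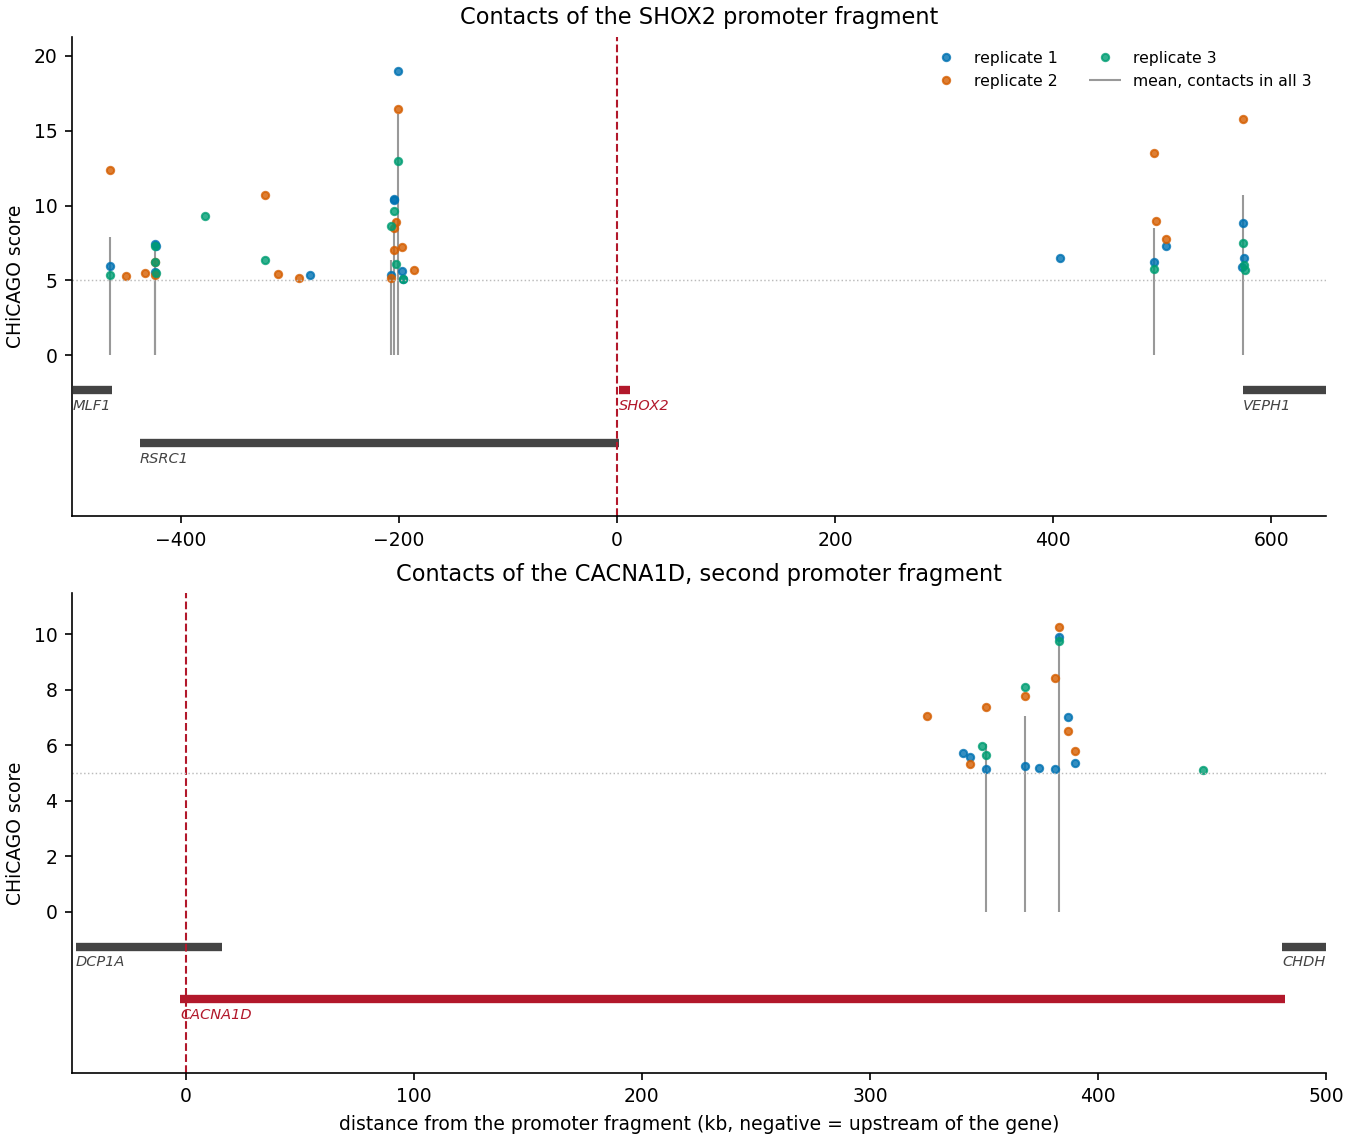
CHiCAGO score against distance in kb for the promoter fragment of *SHOX2* (top) and the second promoter fragment of *CACNA1D* (bottom), drawn as in the maps of *HCN4* and *CACNA1G*. *SHOX2* contacts stood on both sides, with a peak at 201 kb upstream in *RSRC1* and replicate 2 highest at 465, 492 and 574 kb. Of the 13 contacts of the second *CACNA1D* fragment, 12 stood inside the gene between 325 and 446 kb downstream, and the one over *SELENOK* at 559 kb lies outside the plot. Contacts outside the plotted ranges are left out.

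The start of the leading *SHOX2* PIR is shown, chr3:158024861-158025160 on the plus strand, with its HindIII end and both NKX2-5 matches of this stretch in capitals, since NKX2-5 and SHOX2 are known to oppose each other.
SHOX2 PIR with the highest score: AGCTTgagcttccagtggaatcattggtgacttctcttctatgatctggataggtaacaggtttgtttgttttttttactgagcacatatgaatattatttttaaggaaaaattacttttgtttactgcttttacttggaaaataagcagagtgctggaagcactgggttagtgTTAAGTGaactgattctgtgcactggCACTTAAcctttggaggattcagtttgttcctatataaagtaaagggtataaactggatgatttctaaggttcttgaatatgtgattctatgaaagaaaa

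The whole fragment of 2680 bp held 3 NKX2-5 matches, and 34.9% of 2909 listed fragments of similar length held at least 1. It also held 2 GATA matches and 1 homeodomain match, with 82.5% and 61.9% of such fragments holding at least 1. No CTCF core lay in it or in the *SHOX2* promoter fragment, where 8.66% and 16.4% of fragments of similar length held one.

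*CACNA1D*, whose L-type channel opens at more negative voltages than that of *CACNA1C*, had 2 promoter fragments among 26 annotated starts, 6 of which lay in them. The one at chr3:53519924-53530055, with 5 starts, had 2, 4 and 1 contacts, and 0 of its 6 contacts in the union were called in all 3 replicates. The other, the second fragment, lies within *DCP1A* at chr3:53359453-53371749 and holds the single start farthest upstream. It had 10, 8 and 5 contacts. Of its 13 contacts in the union 12 reached into *CACNA1D*, at 325 to 446 kb downstream, and 3 were called in all 3 replicates.

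The highest of these, at chr3:53746765-53750035 and 383 kb away, scored 9.91, 10.25 and 9.77, a mean of 9.98 ± 0.247 (SD, n = 3). The fragments at chr3:53732998-53734041 and chr3:53715708-53717436 scored 5.26, 7.76 and 8.09 and then 5.13, 7.38 and 5.65. The fragment with 5 starts shared 3 PIRs with the second one, which had 13. The promoter fragments at chr3:53417245-53425942 and chr3:53312712-53319247, in which no annotated start lay, each shared 7. The latter, which overlaps *DCP1A*, called the same leading *CACNA1D* fragment at 6.65, 7.41 and 9.24. The stretch around the T-box match of the PIR at chr3:53732998-53734041 is given, chr3:53733089-53733148 on the plus strand, for comparison with the match beside *CACNA1G*. Of 1907 listed fragments of similar length, 9.70% held a T-box match.
CACNA1D PIR, T-box match: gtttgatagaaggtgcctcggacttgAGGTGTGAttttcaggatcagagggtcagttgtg

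*HCN3*, a minor HCN isoform of the heart, had its main promoter fragment at chr1:155246372-155256254, in a gene-dense stretch and together with a start of the kinase gene *CLK2*. It had 5, 9 and 5 contacts, and 11 of its 12 PIRs in the union were promoter fragments of other genes, against 17.5% over all contacts of promoter fragments. Those called in all 3 replicates were the promoter of *FDPS*, an enzyme of isoprenoid synthesis, at 6.50, 9.12 and 7.10 in replicates 1, 2 and 3, and that of *SCAMP3* and *ENTREP3* at 6.60, 7.58 and 6.65. They lay 26.0 and 23.0 kb away, the nearest of any member contact. The second *HCN3* fragment, at chr1:155256942-155273758 with a start of *PKLR*, had 0, 3 and 3 contacts, and none of its 6 contacts in the union was seen in more than 1 replicate. Over all contacts in the union 58.0% were called in 1 replicate.

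*CACNA1H*, the other T-type gene here, had a single contact from its promoter fragment at chr16:1197239-1206259. It joined the promoter fragment of *METRN*, which encodes a secreted factor, 436 kb upstream and was listed at 6.09 and 5.01 in replicates 2 and 3 only. *HCN2* had no promoter fragment in any list. Its annotated start at position 589881 of chromosome 19 lies in a HindIII fragment of 7618 bp that was in no listed contact. A fragment over its body was contacted by 2 promoter fragments in 1 replicate each, at 6.14 and 5.01. Whether the start fragment of *HCN2* was captured was not given in the sources used here, so its lack of contacts is no measurement of a low level.

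Scores of the same contact were also compared between replicates. For *CACNA1G* the Spearman correlation of scores between replicates was 0.944, 0.909 and 0.874 for replicates 1 and 2, 1 and 3, and 2 and 3, over 38, 36 and 35 contacts called in both. For *HCN4* it was 0.675, 0.536 and 0.584 over 27, 26 and 29. For *SHOX2* it was 0.564, 0.661 and -0.0182 over 11, 10 and 10. Neighbouring fragments share ligation and capture, so these contacts are not independent.

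Other genes of pacemaking were counted on lists of related genes. Of 19 further calcium channel and partner genes, 15 had a contact and 5 had one in all 3 replicates, with a median of 3.00 contacts. The counts ran from 0 for *CACNA1E*, *CACNA1F*, *CACNA2D3* and *CACNB1* to 31 for *PEX5L*, which encodes an accessory protein of HCN channels. None of those 31 was called in all 3 replicates. The genes at 0 had no promoter fragment in the lists, so, as for *HCN2*, 0 is no measurement of few contacts. Such genes are included in the medians. Of 6 transcription factor genes of the sinoatrial node and their antagonists, 6 had a contact in all 3 replicates, with a median of 22.0, from 7 for *NKX2-5* to 30 for *ISL1*. All 5 calcium-clock genes had a contact, 4 of them in all 3 replicates, with a median of 14.0, from 1 for the exchanger gene *SLC8A1* to 113 for the ryanodine receptor gene *RYR2*. Of 8 genes of autonomic control 7 had a contact and 5 had one in all 3 replicates, with a median of 6.00, from 0 for *ADCY8* to 50 for *GNAS*. *ADCY8* also had no listed promoter fragment. Of 3 connexin genes 3 had a contact and 2 had one in all 3 replicates, from 3 for *GJC1* to 123 for *GJA5*. Over all 20149 protein-coding genes, 77.0% had a contact, 43.0% had one in all 3 replicates and the median was 5.00. The 7 member genes had a median of 19.0, with 6 having a contact and 5 having one in all 3 replicates.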

How the data were processed

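The contact lists of each of the 3 biological replicates, and of the replicates merged, were used as deposited. The deposited unit is the CHiCAGO score per pair of HindIII fragments. According to the methods of the study, the authors used HiCUP for mapping to hg19/GRCh37 and CHiCAGO, with its default settings, for calling. Tool versions are not given in the sources used here. Pairs scoring under 5 are not listed and read depth was not analysed, so precision is given by the spread over replicates.

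A contact was an unordered pair of fragments, since 222 pairs appear in either order. Calls of the 3 replicates were united for the main values, and the merged list was an alternative. Distances run between fragment midpoints. Mean scores cover the replicates that listed the contact. Transcript starts came from GENCODE 44 lifted to GRCh37, whereas the capture was designed on an older Ensembl annotation. Fragment ends and sequences were read from GRCh37, and promoter windows from RefSeq, which held 5 of the 7 members.

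With 1 condition and no control no test between groups was made, and shares over all promoter fragments or contacts are given where they were computed. Members, gene lists and motifs were chosen with earlier results of these data known. Genes named are the members, those at the 3 highest PIRs of each member fragment, those with a start in a partner promoter fragment, the promoter sharing the largest part of the PIRs of either fragment, and the ends of each list's range. Alternatives were scores of at least 7 and 10, each replicate left out, the merged calls, matching within 5 kb and column order. A listed gene and a sequence are not reported here. Counting was tested on simulated data with known answers. Python 3.11.15 with numpy 2.4.6, pandas 2.3.3 and matplotlib 3.10.9 was used.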

Additional observations from a re-analysis of the deposited data

How the results depend on the processing

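The number of member contacts was 91 with a score of at least 7 and 37 with a score of at least 10, against 174, and ranged from 143 to 154 with 1 replicate left out. The share called in all replicates was 69% when fragments within 5 kb were matched, and 53.2 to 56.9% with 1 replicate left out, where 2 replicates had to call a contact in place of 3. The median distance was 191 kb with a score of at least 7, 158 kb with at least 10, 220 kb in the merged calls and 239 to 254 kb with 1 replicate left out. The share over the same gene was 5.41% with a score of at least 10, 13.1% in the merged calls and 10.4 to 11.9% with 1 replicate left out. Without the second *HCN3* and second *CACNA1D* fragments, an alternative chosen after seeing the data, the median distance was 240 kb and the share over the same gene 4.52%, so 12 contacts of 1 *CACNA1D* fragment carried most of that share. *HCN3* had 11 contacts without replicate 2 and 7 in the merged calls, against 18. By number of contacts, *CACNA1G*, *HCN4* and *SHOX2* had more than 98.5%, 96.3% and 91.7% of the promoter fragments listed. With a score of at least 10 these shares were 96.2%, 85.4% and 82.4%. In the merged calls they were 97.8%, 98.0% and 71.8%. The causes of the other changes were not tested. No paired analysis was possible because the series has 1 condition. A contact under the listed minimum score of 5 cannot be told from an absent one, and the promoter fragments of *SHOX2*, *HCN3*, *CACNA1G* and *CACNA1H* each hold the start of a further gene.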

Other observations

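A fragment within *CACNA1D*, at chr3:53673768-53678978, was in a contact with chromosome 9 in every replicate, each time with a different promoter fragment of the interferon gene region. Replicate 1 listed the *KLHL9* fragment at 8.62, replicate 2 that of *IFNA8* and *MIR31HG* at 10.89 and replicate 3 that of *IFNA13* at 7.76. These fragments lie between positions 21334864 and 21422000 of chromosome 9. None of the 3 pairs was called in more than 1 replicate. How often a fragment met differing promoter fragments of 1 region across replicates was not computed over the series. Over the whole series 96.1% of contacts had both fragments on 1 chromosome. These genes fall outside the naming rule and were chosen after their values were seen.

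The merged calls added 12 PIRs to the 43 of the *HCN4* promoter fragment and left out 3, while they added none to the 30 of *SHOX2* and left out 17. Merging therefore raised the number of contacts at *HCN4* and lowered it at *SHOX2*, and the cause was not tested.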
